A study of Rattus norvegicus with 20 samples.

Results

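Cdk1, Pcna, Mki67 and Top2a are 4 genes of dividing cells, and their messenger RNA was followed here through Wnt/β-catenin stimulation of rat adult neural stem cells. They are 4 of the 32623 genes in the deposited count table and were taken by their Ensembl gene IDs: ENSRNOG00000000632 (Cdk1), ENSRNOG00000021264 (Pcna), ENSRNOG00000028137 (Mki67) and ENSRNOG00000053047 (Top2a). The pairing of ID and symbol is given by the selection rule: 0 of the 4 IDs could be looked up in a reference table used here. All 4 were present in all 20 libraries and all 4 passed the filter on low counts.

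The cells were hippocampal neural stem cells of Fisher 344 rats, kept with the growth factor FGF-2 and treated in a basal medium with 0.5% serum. Wild-type cells and cells transduced with optoWnt, a light-driven switch of the pathway introduced at a multiplicity of infection of 0.5 and selected with puromycin, were each sequenced without stimulus at 0, 3 and 5 d. All 14 stimulated libraries were optoWnt cells that received CHIR99021 (a GSK3 inhibitor that stabilises β-catenin, labelled at 3 mM, a unit that could not be checked here), the Wnt3a ligand (100 ng/mL) or light. The inducer was left ON for 1 d or 3 d (each inducer), ON for 5 d (CHIR99021 and Wnt3a), or ON for 1 d and then OFF for 1 d or 2 d (each inducer). Each combination of genotype, inducer and time course had a single library. Whether libraries came from separate cultures is not in the labels. With no combination repeated, p-values rest on how far libraries depart from additive terms for time course, genotype and inducer. That spread may be technical, and it also holds any real difference between inducers or genotypes in their time courses. A gene that is not called is therefore not shown to be unchanged. The labels do not say which medium the 0 d cells were in, the titles of the unstimulated 3 d and 5 d libraries carry the word ON, and whether those cells were illuminated is not stated. The cell type was not checked against marker genes, because no table used here pairs the IDs with symbols.

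Dividing cells switch these genes on in turn. Pcna encodes the sliding clamp that holds DNA polymerase on the template, and its transcription is driven early, at the entry into DNA synthesis. Cdk1 encodes the kinase that starts mitosis, Top2a the topoisomerase that untangles sister chromatids and Mki67 the Ki-67 protein that coats mitotic chromosomes; transcripts of these genes peak late in the cycle and are low in cells that have left it. In the adult hippocampus, neural stem cells alternate between rest and division, and Wnt/β-catenin signalling has been linked both to their proliferation and to neuronal differentiation.

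The promoters are shown because CHR and CCAAT elements are known from promoters of late cell cycle genes, and the 4 genes differ in them. The windows are the 250 bases before the RefSeq start of each gene (GRCr8), written 5′ to 3′ on the gene's strand: Cdk1 at chr20:19265043-19265292 (+), Pcna at chr3:139955821-139956070 (−), Mki67 at chr1:199952594-199952843 (−) and Top2a at chr10:84473094-84473343 (−). Capitals mark matches, on either strand, to the cell cycle homology region (CHR: TTTGAA or TTCGAA), to the CCAAT box (CCAAT) and to an E2F-type site (TTGGCGC or TTCCCGC).
Cdk1: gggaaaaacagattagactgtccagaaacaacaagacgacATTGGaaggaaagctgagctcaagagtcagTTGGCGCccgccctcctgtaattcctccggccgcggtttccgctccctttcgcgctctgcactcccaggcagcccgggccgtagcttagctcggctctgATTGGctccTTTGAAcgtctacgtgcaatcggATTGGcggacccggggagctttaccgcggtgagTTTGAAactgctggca
Pcna: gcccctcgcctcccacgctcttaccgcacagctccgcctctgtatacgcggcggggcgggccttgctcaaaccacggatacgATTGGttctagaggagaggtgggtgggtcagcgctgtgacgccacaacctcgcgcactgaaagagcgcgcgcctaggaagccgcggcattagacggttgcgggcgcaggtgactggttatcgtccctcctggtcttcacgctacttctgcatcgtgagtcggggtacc
Mki67: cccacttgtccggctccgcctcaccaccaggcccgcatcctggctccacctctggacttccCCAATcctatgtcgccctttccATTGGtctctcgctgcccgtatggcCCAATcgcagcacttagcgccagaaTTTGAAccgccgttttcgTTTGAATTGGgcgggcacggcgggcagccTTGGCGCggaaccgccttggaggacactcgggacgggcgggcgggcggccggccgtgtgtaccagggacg
Top2a: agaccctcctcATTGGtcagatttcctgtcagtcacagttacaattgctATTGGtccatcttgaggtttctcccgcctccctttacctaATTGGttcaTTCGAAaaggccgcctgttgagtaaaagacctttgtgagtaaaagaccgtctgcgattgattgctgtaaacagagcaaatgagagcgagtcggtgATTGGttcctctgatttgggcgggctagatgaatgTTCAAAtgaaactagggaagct
A CHR match was present in the windows of Cdk1, Mki67 and Top2a and not in that of Pcna; 17.4% of 33469 rat promoters of the same length held one. CCAAT was present in 4 of 4 windows, against 34.0% of promoters. Cdk1 and Mki67 held an E2F-type match (5.0% of promoters), and none of the 4 held TATAAA (12.9%). CHR and CCAAT occurred together in Cdk1, Mki67 and Top2a (6.3% of promoters), and the same 3 windows held 3 or more CCAAT matches (2.5%); these last 2 counts were chosen after the matches were seen. In Mki67 a CHR and a CCAAT match share a base. A match describes these letters only.

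**Figure D1:**
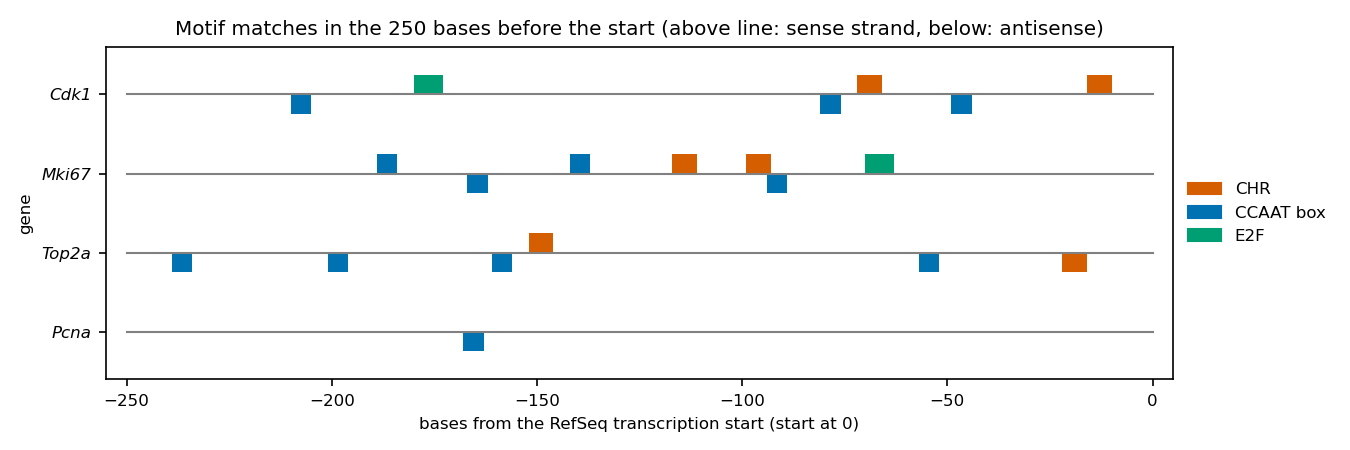
Positions of the CHR, CCAAT and E2F-type matches in the 250 bases before the RefSeq start of each gene; the x axis is the distance from the start in bases and each block is a match, above the line on the gene's strand and below it on the other. Cdk1, Mki67 and Top2a carry CHR and 3 or more CCAAT matches, and Pcna carries a single CCAAT match.

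Levels are given as CPM, the reads of a gene per 1000000 reads of its library; reads come from 3′ ends, so they do not grow with transcript length. Libraries held from 696463 reads (Wnt3a, 1 d ON) to 5935681 reads (unstimulated optoWnt, 3 d), and the level of 3 reads, the limit that a count of 0 allows, ran from 0.505 to 4.307 CPM. Intervals and this limit cover counting error only. In the shallowest library Mki67 rested on 37 reads and Cdk1 on 43. Along the first principal component of all genes (29.4% of the variance) 6 libraries stood apart, with scores of −41.5 or lower against 8.9 or higher in the other 14. They were wild-type 0 d and 5 d, Wnt3a 5 d ON, light 3 d ON, and CHIR99021 and Wnt3a 1 d ON 2 d OFF. In them Cdk1 reads per Top2a read were 0.026 to 0.082 against 0.082 to 0.223 in the other 14, and Mki67 reads per Top2a read were 0.127 to 0.292 against 0.087 to 0.205. Pcna reads per read of the other 3 genes were 0.045 to 0.185 against 0.109 to 0.906. What sets these libraries apart, and whether it underlies the results, was not tested. Tests that rest on them are given with and without them where that changes the call. Fits with the first component as a covariate are given in the last section where they change the number of members called. In bulk samples, fewer dividing cells and less RNA per cell cannot be told apart.

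**Figure D2:**
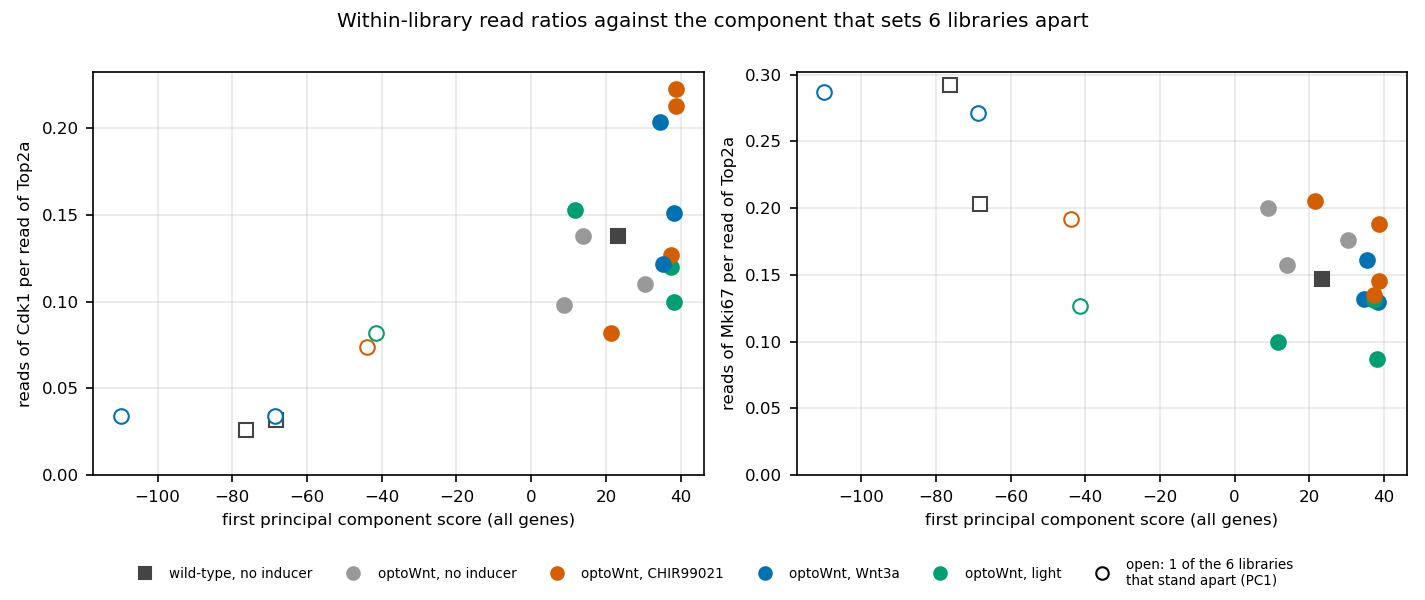
Reads of Cdk1 (left) and of Mki67 (right) per read of Top2a in each of 20 libraries, on linear axes, against the library's score on the first principal component of all genes; each point is 1 library and open symbols are the 6 that stand apart. The open symbols lie at 0.026 to 0.082 for Cdk1 and 0.127 to 0.292 for Mki67.

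Without stimulus, Top2a and Mki67 were highest at 0 d in both genotypes. Top2a was 2412.39 CPM in wild-type and 1807.58 in optoWnt cells at 0 d, 1133.66 and 701.35 at 3 d, and 703.05 and 647.40 at 5 d. Mki67 was 488.74 and 361.00 CPM at 0 d in the same order, 166.67 and 110.35 at 3 d, and 205.10 and 113.94 at 5 d. For both genes the 0 d pair lay above every later unstimulated library, and in each genotype the level at 3 d was 30.6% to 47.0% of that at 0 d. At 5 d Mki67 was 123.1% of its 3 d level in wild-type and 103.3% in optoWnt cells, and Top2a 62.0% and 92.3%.

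For Cdk1 and Pcna the wild-type and optoWnt libraries ran differently. Cdk1 was 77.21 CPM in wild-type cells at 0 d, 156.27 at 3 d and 18.42 at 5 d. In optoWnt cells Cdk1 was 177.09, 97.04 and 70.95 CPM on the same days. Pcna was 146.50, 345.82 and 112.49 CPM in wild-type cells and 254.98, 117.09 and 162.11 in optoWnt cells. Thus at 3 d Cdk1 and Pcna were 2.024-fold and 2.361-fold above 0 d in the wild-type libraries and at 54.8% and 45.9% of 0 d in the optoWnt libraries. In optoWnt cells Cdk1 at 5 d was 40.1% of 0 d, lower at each later day like Top2a and Mki67 against 0 d. Each value is 1 library, and the wild-type 0 d and 5 d libraries are among the 6 that stand apart.

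**Figure D3:**
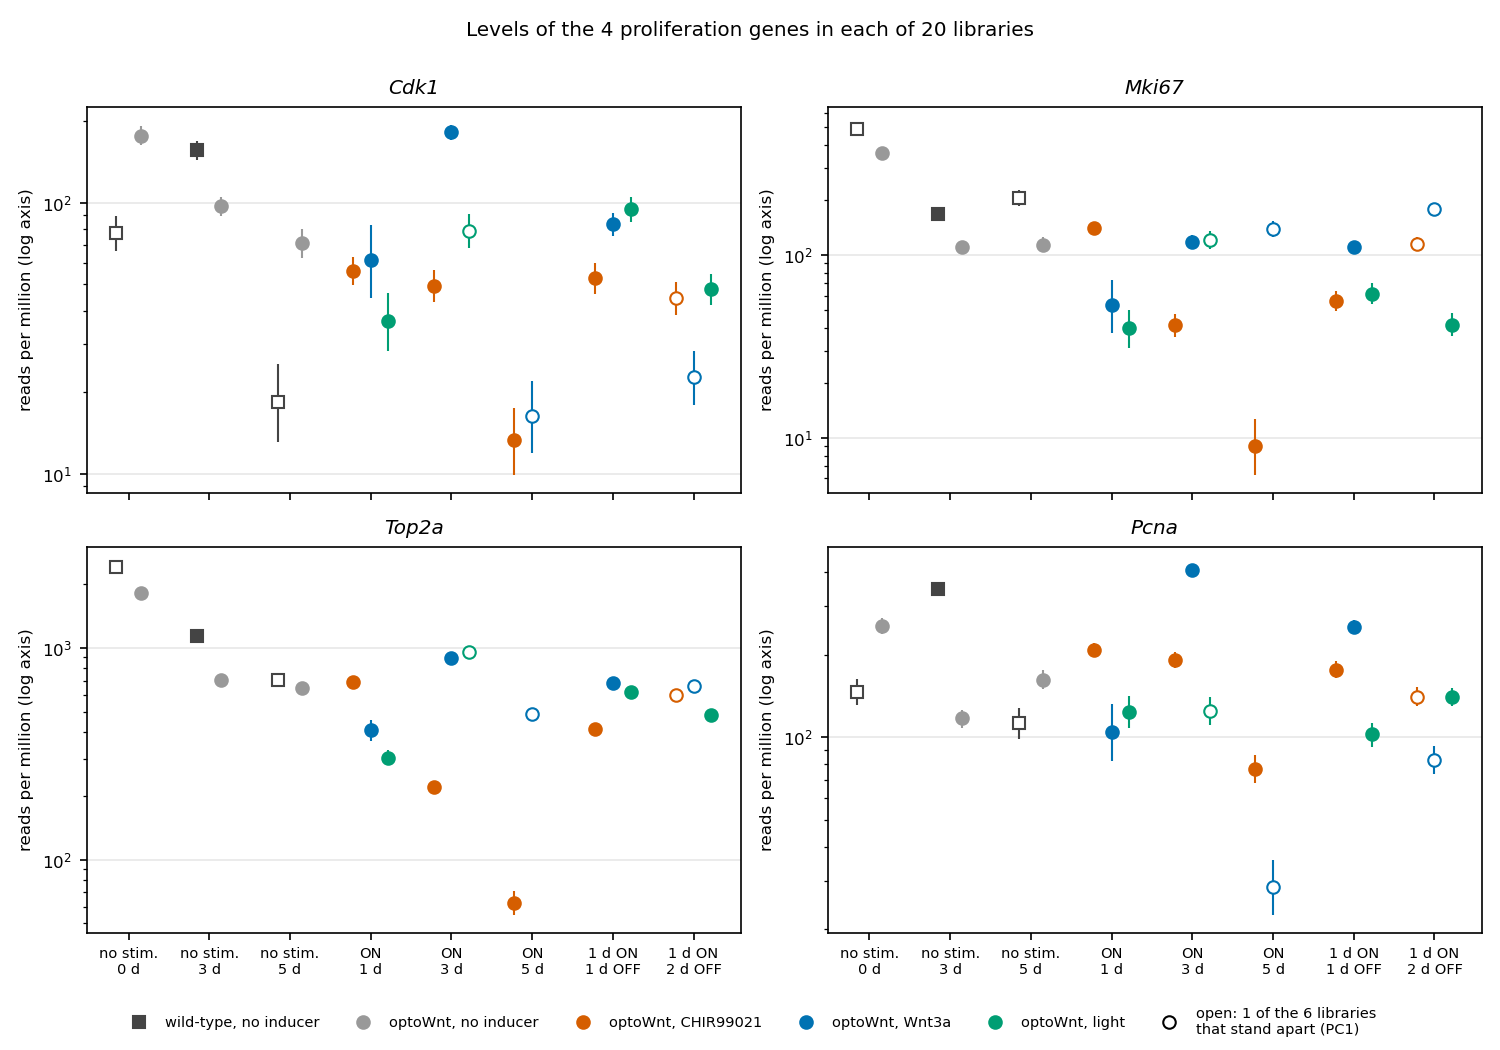
CPM of Cdk1, Pcna, Mki67 and Top2a in each of the 20 libraries on a log axis, by time course; each point is 1 library with its exact 95% Poisson interval, colour and shape give the genotype and inducer, and open symbols are the 6 libraries that stand apart. The 2 unstimulated 0 d libraries are the highest for Mki67 and Top2a, and CHIR99021 5 d ON is the lowest for Cdk1, Mki67 and Top2a.

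The differences were tested with edgeR's quasi-likelihood test, fitted over 12190 genes and all 20 libraries with terms for time course, genotype and inducer; a gene is referred to as called at a Benjamini-Hochberg adjusted p under 0.05. For the members, a log2 fold change is printed for Top2a, the gene with the most reads of the 4 over all libraries, and for any other with an unadjusted p under 0.05. At 3 d against 0 d without stimulus, 0 of 4 members were called, where 2.07% of all genes were; Top2a was lower by a log2 fold change of −1.35 (SE 0.69, adjusted p = 0.42). At 5 d against 0 d, 0 of 4 were called against 4.52% of genes, with Top2a at −1.69 (SE 0.70, adjusted p = 0.19) and Cdk1 at −1.64 (SE 0.61, adjusted p = 0.15). Pooling 3 d and 5 d against 0 d gave −1.52 for Top2a (SE 0.57, adjusted p = 0.14) and −1.63 for Mki67 (SE 0.69, adjusted p = 0.19), again with 0 of 4 called and 5.69% of genes called. Groups that did not overlap were common across genes. Mki67 and Top2a were lower at 3 d than at 0 d with no overlap, as were 21.5% of all genes. The same held for Cdk1, Mki67 and Top2a at 5 d (21.4% of genes) and for Mki67 and Top2a over both days (14.3%). The edgeR test of 5 d against 3 d called no gene (336 genes had an unadjusted p under 0.05, and DESeq2 called 5); Cdk1 stood at −1.73 (SE 0.64, adjusted p = 0.99) and Top2a at −0.34. Cdk1 was −0.50 without the wild-type libraries, −0.52 without those that stand apart, and from −2.75 (without optoWnt 3 d) to −0.71 (without wild-type 3 d) with 1 library left out. The optoWnt cells differed from wild-type by −0.49 for Top2a (SE 0.56), and no gene was called by edgeR (956 at an unadjusted p under 0.05, 22 by DESeq2).

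After 1 d of stimulus the levels of the late genes were below those at 0 d with every inducer. Top2a was 688.35 CPM with CHIR99021, 407.77 with Wnt3a and 303.30 with light at 1 d ON, against 1807.58 in optoWnt cells at 0 d. Mki67 was 141.26, 53.13 and 39.75 CPM in that order, against 361.00. Cdk1 was 56.19, 61.74 and 36.48 CPM, against 177.09. All 3 stimulated libraries lay below both 0 d libraries in each of these genes, as they did in 14.8% of all genes. For Pcna the 1 d libraries held 207.79, 104.82 and 123.61 CPM and overlapped the 0 d pair. By the edgeR test the log2 fold changes were −1.92 for Top2a (SE 0.68, adjusted p = 0.30), −2.07 for Mki67 (SE 0.83, adjusted p = 0.41) and −1.68 for Cdk1 (SE 0.58, adjusted p = 0.29); 0 of 4 were called, against 0.574% of genes. With the 0 d and 1 d ON libraries fitted alone by edgeR, without genotype and inducer terms, Mki67 (−2.59, adjusted p = 0.018) and Top2a (−2.35, adjusted p = 0.013) were called. The 0 d pair includes wild-type cells and the 1 d ON libraries do not, so genotype is mixed into that fit. The share of all genes called in it is not given here. No unstimulated 1 d library was analysed, so stimulus and time in culture cannot be told apart here.

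Levels at 0 d against everything later were compared after the levels had been seen. The higher levels at 0 d held for Mki67 and Top2a in all 18 later libraries, whatever the stimulus. The lowest 0 d level of Mki67, 361.00 CPM, was 1.76-fold the highest later level (205.10 in unstimulated wild-type cells at 5 d). The lowest 0 d level of Top2a, 1807.58 CPM, was 1.59-fold the highest later level (1133.66 in wild-type cells at 3 d). A gap of any size, with every later library below both 0 d libraries, was found in 488 of 12190 genes (4.0%). The mean of Mki67 was 425 ± 90.3 CPM at 0 d (SD, n = 2) and 101 ± 54.6 later (SD, n = 18), and that of Top2a was 2110 ± 428 and 592 ± 261. For Cdk1 the means were 127 ± 70.6 and 65.7 ± 45.8 CPM, and for Pcna 201 ± 76.7 and 161 ± 94.5; both genes overlapped.

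In the fit over all 20 libraries, 3 of 4 members were called lower later, against 3.52% of genes called lower (6.31% in either direction). The edgeR log2 fold changes were −1.86 for Top2a (SE 0.48, adjusted p = 0.032), −2.01 for Mki67 (SE 0.57, adjusted p = 0.049) and −1.50 for Cdk1 (SE 0.42, adjusted p = 0.045), while Pcna had an adjusted p of 0.52. Without the 6 libraries that stand apart the estimates were −2.14 for Top2a, −2.65 for Mki67 and −1.62 for Cdk1. The 0 d group was then the optoWnt library alone, assumed to vary like the other groups. Calls are therefore given here for the fit over all 20 libraries. They depended on single libraries: 0 of 4 were called without wild-type 0 d, without optoWnt 0 d, without wild-type 5 d, or without all wild-type libraries.

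The library of 5 d constant CHIR99021 had the lowest levels of Top2a, Mki67 and Cdk1 of all 20. Top2a was 220.96 CPM after 3 d and 62.50 after 5 d, against 701.35 and 647.40 in unstimulated optoWnt cells of the same day, which is 31.5% and 9.7% of those levels. Mki67 was 41.43 and 9.04 CPM against 110.35 and 113.94, or 37.5% and 7.9%. Cdk1 was 49.35 and 13.30 CPM against 97.04 and 70.95, or 50.9% and 18.7%. At 5 d the Mki67 level rested on 34 reads, with an exact Poisson interval of 6.26 to 12.64 CPM, and no other library had an Mki67 level below 39.75.

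Pcna did not share that order. It was 191.75 CPM after 3 d of CHIR99021, above the 117.09 of unstimulated optoWnt cells, and 76.86 after 5 d, below 162.11. Pcna reads per read of Cdk1, Mki67 and Top2a together were 0.615 at 3 d and 0.906 at 5 d of CHIR99021, the 2 highest of 20 libraries, against 0.195 in unstimulated optoWnt cells at 5 d. The ratio at 5 d was 4.65-fold that of the unstimulated cells (95% counting interval 3.88 to 5.57), 3.92-fold with Top2a left out and 4.49-fold with Mki67 left out. With 1 library on each side, this compares libraries and not conditions. From 3 d to 5 d of CHIR99021, Top2a stood at 28.3% of its earlier level, Mki67 at 21.8%, Cdk1 at 27.0% and Pcna at 40.1%, again between single libraries.

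A model of 9 libraries, those kept for 3 d or 5 d either with no stimulus or with an unbroken one (10732 genes), gave each inducer its own estimate. For CHIR99021 against no stimulus (n = 2 and 4) the edgeR log2 fold change was −2.47 for Top2a (SE 0.51, 95% interval −3.63 to −1.31, adjusted p = 0.057), −2.25 for Mki67 (SE 0.66, adjusted p = 0.15) and −1.90 for Cdk1 (SE 0.67, adjusted p = 0.26). With 1 library left out Mki67 ran from −3.72 (without CHIR99021 3 d ON) to −1.29 (without CHIR99021 5 d ON), Cdk1 from −2.74 (without unstimulated optoWnt 3 d) to −0.58 (without unstimulated optoWnt 5 d), and Top2a from −3.14 to −1.83. None of the 4 was called, against 1.59% of genes; the median over the 4 was −2.07 and over all genes −0.05. Mki67 and Top2a did not overlap between the groups, as did 16.8% of genes. Pcna had an adjusted p of 0.94. For the reduced fit that follows, the share of all genes called is not given, so its calls lack a background. Without the 3 of these 9 libraries that stand apart, Top2a (−2.47, adjusted p = 0.00026), Mki67 (−2.43, adjusted p = 7.5e-05) and Cdk1 (−1.62, adjusted p = 0.0059) were called, in a fit with 1 residual degree of freedom.

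Under constant Wnt3a the levels differed by day and by gene. After 3 d, Wnt3a held the highest Cdk1 (182.51 CPM) and Pcna (407.48 CPM) of all 20 libraries, 1.88-fold and 3.48-fold those of unstimulated optoWnt cells at 3 d; by TMM-scaled totals the optoWnt 0 d library was the highest for Cdk1. After 5 d, Cdk1 was 16.34 CPM and Pcna 28.60, the lowest Pcna of all, or 23.0% and 17.6% of the unstimulated optoWnt level at 5 d. Unstimulated wild-type cells held Cdk1 at 156.27 CPM at 3 d and 18.42 at 5 d, close to the Wnt3a levels of those days. Their Pcna was 345.82 and 112.49 CPM. Top2a was 895.06 and 484.69 CPM on these days and Mki67 118.32 and 138.91, between 74.9% and 127.6% of the unstimulated optoWnt level. The Wnt3a 5 d library is among the 6 that stand apart. The edgeR estimate for constant Wnt3a was −0.07 for Top2a (SE 0.48, 95% interval −1.16 to 1.01), 0 of 4 members were called, and no gene was called (513 at an unadjusted p under 0.05, 36 by DESeq2).

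Light at 3 d ON lay on both sides of the unstimulated cells. Top2a was 956.57 CPM against 701.35 in unstimulated optoWnt cells, Mki67 121.02 against 110.35, Pcna 124.73 against 117.09 and Cdk1 78.89 against 97.04. The estimate for Top2a was 0.05 (SE 0.62, 95% interval −1.36 to 1.46) from 1 light library, which stands apart. No gene was called by edgeR (700 at an unadjusted p under 0.05, 8 by DESeq2).

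Comparisons between inducers were of 2 kinds. Between constant CHIR99021 and constant Wnt3a, added after the levels were seen, the log2 fold change was −2.40 for Top2a (SE 0.51, adjusted p = 0.12) and −2.47 for Mki67 (SE 0.67, adjusted p = 0.21); neither gene overlapped, as was the case lower for 20.4% of genes, and 0 of 4 were called against 0.0280% of genes. Between constant light and constant CHIR99021, also added, Top2a was 2.52 (SE 0.58, adjusted p = 0.17) and Mki67 2.20 (SE 0.74, adjusted p = 0.27), with 0 of 4 called against 0.0186% of genes. Top2a, Mki67 and Cdk1 lay above without overlap, as did 41.5% of genes. Averaged over matched time courses in the 14 stimulated libraries, Top2a differed by −0.82 for CHIR99021 against Wnt3a (SE 0.50, adjusted p = 0.72), 0.46 for light against CHIR99021 (SE 0.52, adjusted p = 0.71) and −0.36 for light against Wnt3a (SE 0.53, adjusted p = 0.85). None of the 4 was called in these, against 0.0166%, 0.862% and 0% of 12060 genes by edgeR. For light against Wnt3a, where edgeR called no gene, 1257 had an unadjusted p under 0.05 and DESeq2 called 150.

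Pooled over inducers, constant stimulus gave estimates of uncertain sign at 3 d and lower ones at 5 d. At 3 d ON against unstimulated 3 d, Top2a was at −0.29 (SE 0.68), with no member whose groups did not overlap, where 11.2% of genes were higher and 8.11% lower without overlap, and no gene called by edgeR (1031 at an unadjusted p under 0.05, 114 by DESeq2). At 5 d ON against unstimulated 5 d, the estimates were −1.68 for Cdk1 (SE 0.65, adjusted p = 0.55), −1.46 for Pcna (SE 0.66, adjusted p = 0.62) and −1.23 for Top2a (SE 0.76, adjusted p = 0.70). No light library was taken at 5 d ON, and the additive model fills in its part of these estimates. With 1 library left out they ran from −2.11 to −0.44 for Cdk1 (−0.44 without unstimulated optoWnt 5 d), from −2.27 (without CHIR99021 5 d ON) to −0.82 (without unstimulated optoWnt 5 d) for Pcna, and from −2.96 (without Wnt3a 5 d ON) to −0.27 (without CHIR99021 5 d ON) for Top2a; Top2a was −3.12 without the libraries that stand apart. These 3 genes did not overlap, as did 15.9% of genes lower, and edgeR called none (961 at an unadjusted p under 0.05, 100 by DESeq2). Between 3 d ON and 1 d ON Top2a was at 0.28 (SE 0.58), with 0 of 4 members called against 0.0246% of genes.

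**Figure D4:**
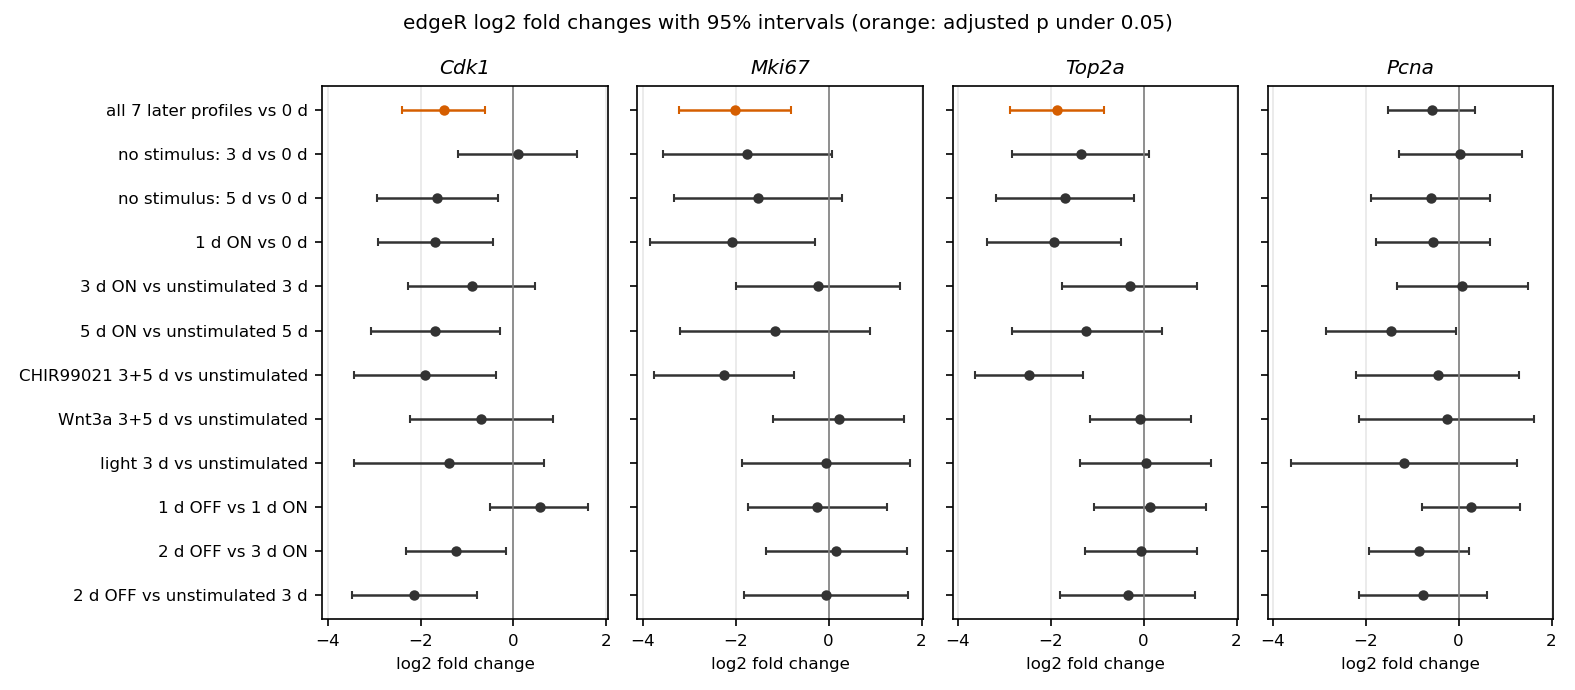
Log2 fold changes of the 4 genes with 95% intervals in the main comparisons of the edgeR models; points left of 0 are lower in the first-named group, and orange marks an adjusted p under 0.05. Only the comparison of all later libraries with 0 d is orange, for Cdk1, Mki67 and Top2a; Top2a under constant CHIR99021 lies at −2.47.

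With the inducer withdrawn after 1 d, Top2a and Cdk1 were below the unstimulated optoWnt cells of 3 d with each inducer. Top2a after 1 d ON and 2 d OFF was 600.63 CPM with CHIR99021, 657.38 with Wnt3a and 479.42 with light, against 701.35 in those unstimulated cells. Mki67 was 115.25, 178.48 and 41.62 CPM in that order, on both sides of 110.35. Cdk1 was 44.53, 22.67 and 47.94 CPM, against 97.04. Pcna was 140.76, 82.93 and 140.34 CPM, below its unstimulated 117.09 only with Wnt3a.

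Against the same inducer kept ON for 3 d, the withdrawn CHIR99021 library was higher in Top2a (2.718-fold) and Mki67 (2.782-fold), at 90.2% for Cdk1 and at 73.4% for Pcna. With Wnt3a, the withdrawn library was at 73.4% for Top2a, 12.4% for Cdk1 and 20.4% for Pcna, and 1.508-fold for Mki67. With light, it was at 50.1% for Top2a, 34.4% for Mki67, 60.8% for Cdk1 and 112.5% for Pcna. Single libraries stand behind each of these, and in each pair 1 of the 2 libraries stands apart on the first component.

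Over the 3 inducers, 2 d OFF against 3 d ON gave −0.05 for Top2a (SE 0.57, 95% interval −1.26 to 1.16) and −1.23 for Cdk1 (SE 0.50, adjusted p = 0.53); Cdk1 did not overlap, as did 5.82% of genes lower. Against unstimulated 3 d, Cdk1 stood at −2.13 (SE 0.63, adjusted p = 0.64) and Top2a at −0.34 (SE 0.68). Neither overlapped, as did 8.31% of genes lower. For Cdk1 this estimate was −1.33 without the wild-type libraries and −1.03 without those that stand apart, each with a single library in a group. With 1 library left out it ran from −3.41 to −1.36. No gene was called by edgeR in either comparison (1095 and 898 at an unadjusted p under 0.05; 43 and 0 by DESeq2).

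After 1 d OFF, Top2a was 618.37 CPM with light against 303.30 at 1 d ON, 684.35 with Wnt3a against 407.77, and 415.12 with CHIR99021 against 688.35. The CHIR99021 pair ran opposite to the others. Mki67 showed the same split, at 61.60 CPM against 39.75 with light, 110.50 against 53.13 with Wnt3a and 56.17 against 141.26 with CHIR99021. The pooled estimate for Top2a was 0.14 (SE 0.57), with no gene called by edgeR (238 at an unadjusted p under 0.05, 3 by DESeq2). A test of whether withdrawal differed between inducers, over 12 libraries and 11564 genes, gave adjusted p = 0.91 for Cdk1 and 1 for Top2a, and edgeR called no gene (400 at an unadjusted p under 0.05, 11 by DESeq2). This test averaged 1 d OFF against 1 d ON with 2 d OFF against 3 d ON. For Top2a their log2 ratios had opposite signs: −0.73 and 1.44 with CHIR99021, 0.75 and −0.45 with Wnt3a, 1.03 and −1.0 with light. The test therefore cannot decide on the split at 1 d OFF.

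Across the 20 libraries the 4 genes did not follow one common order. Pearson's r of log2 CPM was 0.93 for Mki67 and Top2a (Spearman's rho 0.85) and 0.77 for Cdk1 and Pcna (rho 0.64). It was 0.63 for Cdk1 and Top2a (rho 0.64), 0.39 for Cdk1 and Mki67 (rho 0.25), 0.38 for Pcna and Top2a (rho 0.44) and 0.22 for Mki67 and Pcna (rho 0.23). These describe the libraries only, since each pair of values shares its library and depth. They include the 6 libraries that stand apart, where Cdk1 reads per Top2a read were 0.026 to 0.082 against 0.082 to 0.223 in the other 14. Correlations within those 14 were not calculated, so the values may not hold there. From lowest to highest library the level ran over 13.7-fold for Cdk1, 14.2-fold for Pcna, 38.6-fold for Top2a and 54.1-fold for Mki67. At the low end of Cdk1 the order was not resolved by counting error: CHIR99021 5 d ON was 13.30 CPM (9.87 to 17.53), Wnt3a 5 d ON 16.34 (11.87 to 21.94), unstimulated wild-type 5 d 18.42 (13.04 to 25.29) and withdrawn Wnt3a 22.67 (17.95 to 28.25). Of these 4, only the first and the last have intervals that do not overlap. At the high end of Mki67, wild-type 0 d (461.14 to 517.55) and optoWnt 0 d (341.42 to 381.42) have intervals apart from each other and from wild-type 5 d (186.01 to 225.60).

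Among the 9576 genes that averaged 5 CPM or more, the gene most like the mean log2 level of the 4 over the 20 libraries was ENSRNOG00000010721 (r = 0.964, rho = 0.970). It was highest in unstimulated wild-type cells at 3 d (71.0 CPM) and lowest at CHIR99021 5 d ON (7.18 CPM). The next, ENSRNOG00000009339 (r = 0.953, rho = 0.917), was 402 and 511 CPM at 0 d and 29.0 at CHIR99021 5 d ON. The least like were ENSRNOG00000007905 (r = −0.869) and ENSRNOG00000011015 (r = −0.861). The first of these was 1.67 and 0.569 CPM in wild-type and optoWnt cells at 0 d. These levels lie near the limit of 3 reads, 1.252 and 0.853 CPM in those libraries. At 3 d and 5 d of CHIR99021 it was 40.1 and 59.6 CPM, its highest levels. The second reached 144 CPM at CHIR99021 5 d ON. The IDs are not named because no table used here pairs them with symbols.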

How the data were processed

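The 20 libraries were made with a QuantSeq 3′ kit following its protocol for low RNA amounts, per the labels. The authors deposited whole-number read counts per Ensembl gene, with no normalization, and the submitters' processing notes name Bowtie2, Subread, featureCounts and the build Rnor_6.0. No source used here gives versions, strand setting or the treatment of multi-mapping reads, so reads of near-identical copies or overlapping genes could be miscounted.

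Libraries were tied to groups by the well in their labels, in 8 time courses. Tests used edgeR 4.0.16 (quasi-likelihood, TMM, filterByExpr; R 4.3.3, limma 3.58.1) with Benjamini-Hochberg adjustment over all genes tested, and DESeq2 1.42.0 as an alternative, beside other scalings, no filter, the first component as a covariate, fewer terms and libraries left out. The models were of all 20 libraries (9 residual degrees of freedom), 9 sustained (3), 14 stimulated (7) and 12 for withdrawal (4). CPM in the text uses library totals; intervals are exact Poisson at 95%. Named genes are the 4 members and the 2 most and 2 least like them. The members and lists were chosen with earlier results of these data known. Cell cycle lists and cell type markers were not analysed here, since IDs could not be paired with symbols. Promoter windows come from RefSeq.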

Additional observations from a re-analysis of the deposited data

Results flagged for a closer look

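The 3 results below, each of a member in a contrast between inducers, were picked by a rule on direction. Every library of one side lay below, and every library of the other above, the unstimulated optoWnt cells of the same day. The share of all genes that meet this rule was not calculated, so the 3 lack a background. With so few libraries, a gene can meet it by chance. Groups without overlap, a different rule, were common. They were found lower in 20.4% of genes for constant CHIR99021 against constant Wnt3a. For constant light against constant CHIR99021 they were found higher in 41.5%. For Mki67, both constant CHIR99021 libraries were lower and both constant Wnt3a libraries higher, and the fitted difference was −2.47 (SE 0.67, edgeR adjusted p = 0.21). The Wnt3a 3 d level, 118.32 CPM (108.95 to 128.28), overlapped that of the unstimulated cells, 110.35 (102.06 to 119.13), within counting error. So did the Mki67 level of light 3 d, 121.02 CPM (107.55 to 135.7). For Mki67 in constant light against constant CHIR99021 the difference was 2.20 (SE 0.74, edgeR adjusted p = 0.27), and 1.29 with the first component as a covariate. For Top2a in the same contrast it was 2.52 (SE 0.58, edgeR adjusted p = 0.17). The test of the difference did not pass the threshold in any of the 3, and light had 1 library. Wnt3a 5 d and light 3 d are among the 6 libraries that stand apart. In these 6, Mki67 per Top2a read was 0.127 to 0.292 against 0.087 to 0.205 in the others. What sets them apart, and whether it underlies these differences, was not tested.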

How the results depend on the processing

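Of 22 comparisons, 15 had no member called under any alternative tried. The members called at 5 d against 0 d without stimulus numbered 0, and 2 with the first component as a covariate. At 3 d and 5 d against 0 d they numbered 1 with no filter. At 1 d ON against 0 d they numbered 2 with these libraries fitted alone, without genotype and inducer terms. For later libraries against 0 d, 3 were called, but 1 with library totals only, 0 with no inducer term, 0 without the wild-type libraries, and 0 to 3 when 1 library was left out. It was 1 without wild-type 3 d, CHIR99021 3 d ON, light 1 d ON, any of the 1 d OFF libraries or CHIR99021 2 d OFF. For constant CHIR99021 against no stimulus the count was 2 with DESeq2, 3 with no filter, 3 with the first component as a covariate, 3 without the libraries that stand apart and 0 to 1 when 1 library was left out; it was 1, with Top2a called, without Wnt3a 3 d ON (adjusted p = 0.038) or Wnt3a 5 d ON (0.04). For constant CHIR99021 against constant Wnt3a it was 2 with DESeq2, 2 with no filter, 3 without the libraries that stand apart and 0 to 1 when 1 library was left out; it was 1, Top2a, without unstimulated optoWnt 3 d (adjusted p = 0.046) or 5 d (0.033). For constant light against constant CHIR99021 it was 1 with DESeq2 and 2 with no filter. Filtering by time course, chosen after seeing the data and run for the 5 comparisons of the 9-library model, changed no member's call there. Counts of all genes called by DESeq2 exceeded those of edgeR by more than 1.5 times in most comparisons (1280 against 769 for later libraries against 0 d, and 616 against 171 for constant CHIR99021). For the other settings the share of all genes called is not given. Members called under them, here and above, therefore cannot be set against a background. Of 37 estimates printed, 8 changed sign under at least 1 alternative. Of the 51 member estimates not printed, 32 did. Those printed for genes other than Top2a were picked by an unadjusted p under 0.05. Without the libraries that stand apart, Top2a was −0.10 for 3 d ON against 1 d ON, 0.36 for 2 d OFF against 3 d ON and −0.04 for light against CHIR99021 over matched courses. With the first component as a covariate it was 0.11 for optoWnt against wild-type and −0.12 for constant light, which was −0.02 with no filter. With 1 library left out, Top2a ran from −0.23 to 1.11 for 1 d OFF against 1 d ON, −0.53 to 0.49 for 2 d OFF against 3 d ON, −0.22 to 1.15 for 3 d ON against 1 d ON, −0.88 to 0.12 for 3 d ON against unstimulated 3 d, −0.42 to 0.41 for constant light and −0.43 to 0.38 for constant Wnt3a. The cause was not tested. No paired analysis was possible because the labels carry no replicate numbers to use as a block; inducer and genotype, which match libraries across time courses, were terms of the models. At the depth of the shallowest library, Mki67 and Cdk1 rested on under 50 reads, and small differences there were not detectable.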
